A study of Mus musculus with 6 samples.

Results

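The genes described are those of the extracellular matrix: the collagens, the laminins, and a fixed set of proteoglycans and glycoproteins comprising the hemicentins, fibronectin, tenascins, lecticans, perlecan, agrin, nidogens, Sparc, a link protein and thrombospondins. They were picked by name from the deposited count table, and 73 of the 27372 genes listed carried such a name. The names were chosen with earlier results of these data known, so counts among them describe the set and do not test it. The data were bulk RNA-seq libraries of cultured mouse neural stem cells, 3 from a group labelled as a Sirt6 knockout and 3 from a control group labelled WT. Both groups were cells of mice at postnatal day 7, kept in DMEM/F12 proliferation medium with B27, BSA, EGF and bFGF (20 ng/ml of each growth factor), with RNA taken on day 7 of culture. The series text calls the mutant mice Sirt6 cKO. The Cre driver, the strain and the number of animals behind each culture are absent from the labels and series text used here, so p-values measure the spread between these libraries, which may be technical.

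The matrix is the network of secreted proteins around cells. In the brain it is unusual in holding little fibrillar collagen: its bulk is hyaluronan with the lecticans, large chondroitin sulfate proteoglycans that bind hyaluronan at one end and tenascins at the other. Sheet-like basement membranes, built from laminins and collagen IV and joined by nidogens, perlecan and agrin, line blood vessels and the pial surface, and their fine branches reach the postnatal stem cell zone of the ventricle wall.

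Several facts about the libraries bear on all values. Sirt6, the targeted gene, went against the labels. It had 474, 492 and 442 counts in the libraries labelled knockout, against 380, 293 and 260 counts in control libraries. Its log2 fold change was 0.61 ± 0.19 (SE). No fit called Sirt6 at an adjusted p under 0.05 (0.998 by edgeR, 0.100 by DESeq2 with the replicate number as a block). The counts are per whole gene, and the deleted part of the gene is not given, so the check cannot say whether the deletion is present, and the groups are named by their labels throughout. Total counts were 17222744 to 18096866 in the libraries labelled knockout and 17198852 to 18297275 in control libraries, so that 1 CPM (the usual unit of counts scaled to library size, here after TMM normalization) stood for 16.7 to 18.6 counts. A set of 4 genes of the Y chromosome summed to 0.755, 0.12 and 0 CPM in the libraries labelled knockout, against 67.5, 234 and 0 CPM in control libraries. Only control replicates 1 and 2 had a high Y-linked level, so fits with it as a covariate compare the groups largely through control replicate 3. A list of 12 mitotic genes summed to 692, 1827 and 489 CPM in the libraries labelled knockout, against 1577, 2854 and 1036 CPM in control libraries. Astrocyte markers summed to 7832, 7409 and 19534 CPM in the libraries labelled knockout, against 5804, 2248 and 11678 CPM in control libraries. Radial glial and neural stem cell markers were abundant in every library, from 9716 to 11771 CPM in the libraries labelled knockout and from 9443 to 11815 CPM in control libraries. Markers of microglia, endothelial cells, mural cells, fibroblasts and meningeal cells were mostly scarce. All 7 microglial markers in the table, 6 of 9 endothelial markers, 8 of 10 mural markers (Pdgfrb, Acta2 and Des among them) and 7 of 9 fibroblast and meningeal markers (Dcn and Lum among them) stayed under 1 CPM in every library. The summed mural list came to 106, 132 and 97.7 CPM in the libraries labelled knockout, against 97.4, 59.5 and 84.8 CPM in control libraries, with no overlap of the groups. Most of it was Notch3, also a neural stem cell gene, at 110 ± 17 CPM in libraries labelled knockout and 79.1 ± 19.4 CPM in control libraries (SD, n = 3 each). The summed fibroblast and meningeal list lay between 23.9 and 37.8 CPM in the libraries labelled knockout and between 27.3 and 41.9 CPM in control libraries, most of it from Prrx1. In bulk RNA, fewer cells of a type and less RNA per cell cannot be told apart.

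The matrix genes together took 0.555% to 0.664% of the counts in libraries labelled knockout and 0.567% to 0.683% in control libraries. The genes Ncan, Bcan, Tnc, Tnr and Agrn held 74.5% to 81.3% of those counts in every library. In all, 10 genes averaged more than 100 CPM over the 6 libraries, 16 lay between 10 and 100 CPM, and 21 below 10 CPM still had enough counts to be tested. The other 26 did not pass the filter on low counts, and 15 of the 73 had no count at all in at least 1 library. Among the 26 were the genes that make up most matrix in connective tissue. Col1a1 had 3, 15 and 2 counts in the libraries labelled knockout and 6, 9 and 8 in control libraries, and Col1a2, its partner chain in collagen I, had at most 1 count in any library. Col3a1, the chain of collagen III, had 0, 0 and 5 counts in the libraries labelled knockout, against 0, 0 and 4 in control libraries. Hapln1, the link protein that locks lecticans to hyaluronan, had 0 counts in all 3 libraries labelled knockout, against 0, 3 and 1 in control libraries.

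**Figure D1:**
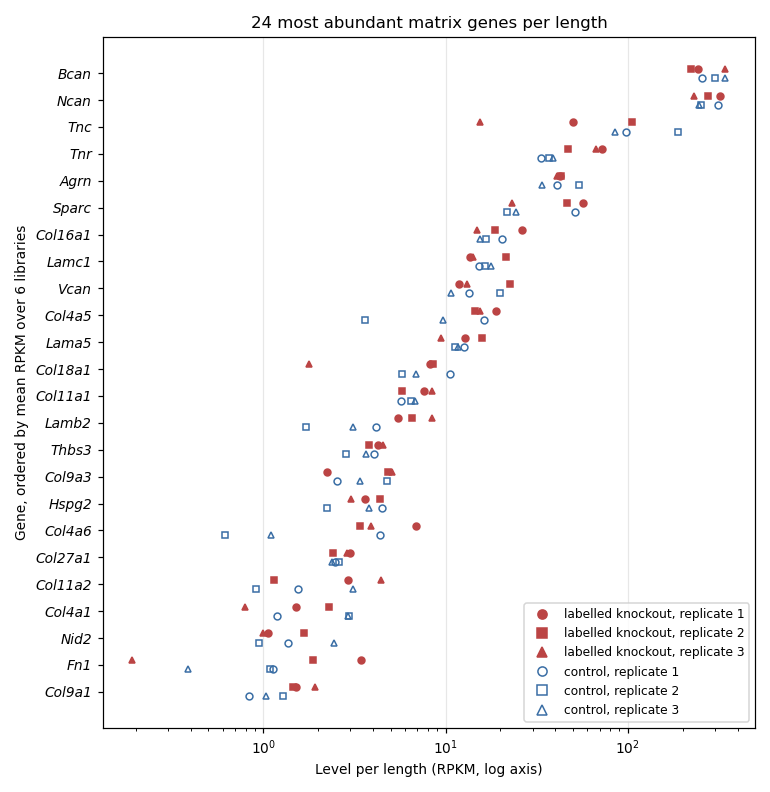
Level per length of the 24 most abundant matrix genes (RPKM, log axis), with 1 point per library, filled for libraries labelled knockout and open for control libraries, the marker shape giving the replicate number. Bcan and Ncan have group means of 269 to 299 RPKM, with single libraries from 221 to 343 RPKM for Bcan and from 232 to 319 RPKM for Ncan. The 3 filled points of Tnr and of Lamb2 lie to the right of all open points.

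The counts and CPM above set the precision of each value. Levels of different genes were compared per length, as RPKM, the CPM divided by the gene's exon length in kilobases. Brevican (Bcan) and neurocan (Ncan), the lecticans typical of brain, stood far above the rest. Bcan averaged 269 ± 65.3 RPKM in libraries labelled knockout and 299 ± 44.3 RPKM in control libraries, and Ncan averaged 276 ± 43.8 RPKM in libraries labelled knockout and 269 ± 36.1 RPKM in control libraries (SD, n = 3 each). These 2 did not differ in order beyond their spread. Tenascin-C, tenascin-R, agrin and Sparc followed, from 42.2 to 61.8 RPKM in libraries labelled knockout and from 32.4 to 124 RPKM in control libraries. Versican (Vcan), the third lectican, averaged 15.9 RPKM in libraries labelled knockout and 14.6 RPKM in control libraries, and aggrecan (Acan), the fourth, averaged 0.09 RPKM in libraries labelled knockout and 0.113 RPKM in control libraries.

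Across all 15087 genes tested, no gene was called between the groups by edgeR's quasi-likelihood test at an adjusted p under 0.05 (percent called 0), and so none of the 47 matrix genes tested was called. At an unadjusted edgeR p under 0.05, 6 of the 47 stood out, where 3.47% of all genes did (1.98% higher and 1.5% lower): Tnr, Lamb2 and Col9a1 were higher in the libraries labelled knockout, and Hmcn1, Col19a1 and Lama4 were lower. Same-numbered libraries of the groups deviated together, and DESeq2 with the replicate number as a block called 6 of the 42 matrix genes it gave an adjusted p, where it called 3.56% of all genes (1.17% higher and 2.39% lower). Those 6 were Tnr, Lamb2 and Col4a6, higher, and Hmcn1, Col19a1 and Lama4, lower. DESeq2 without the block called none of them, where it called 0.0183% of all genes. EdgeR with the block likewise called none after adjustment, and gave 12 of the 47 an unadjusted p under 0.05, where 12.5% of all genes had one. The CPM values of the groups did not overlap for 5 of the 47, where they did not overlap for 8.6% of all genes (4.88% higher and 3.73% lower). In all, 24 of the 47 had a fold change above 0 and 23 below it, where 50% of all genes lay on each side, and the median log2 fold change was 0.03 for the matrix genes and 6.6e-05 for all genes. The edgeR adjusted p was 0.998 for 45 of the 47 tested matrix genes and 0.999 for Lamc1 and Col7a1.

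**Figure D2:**
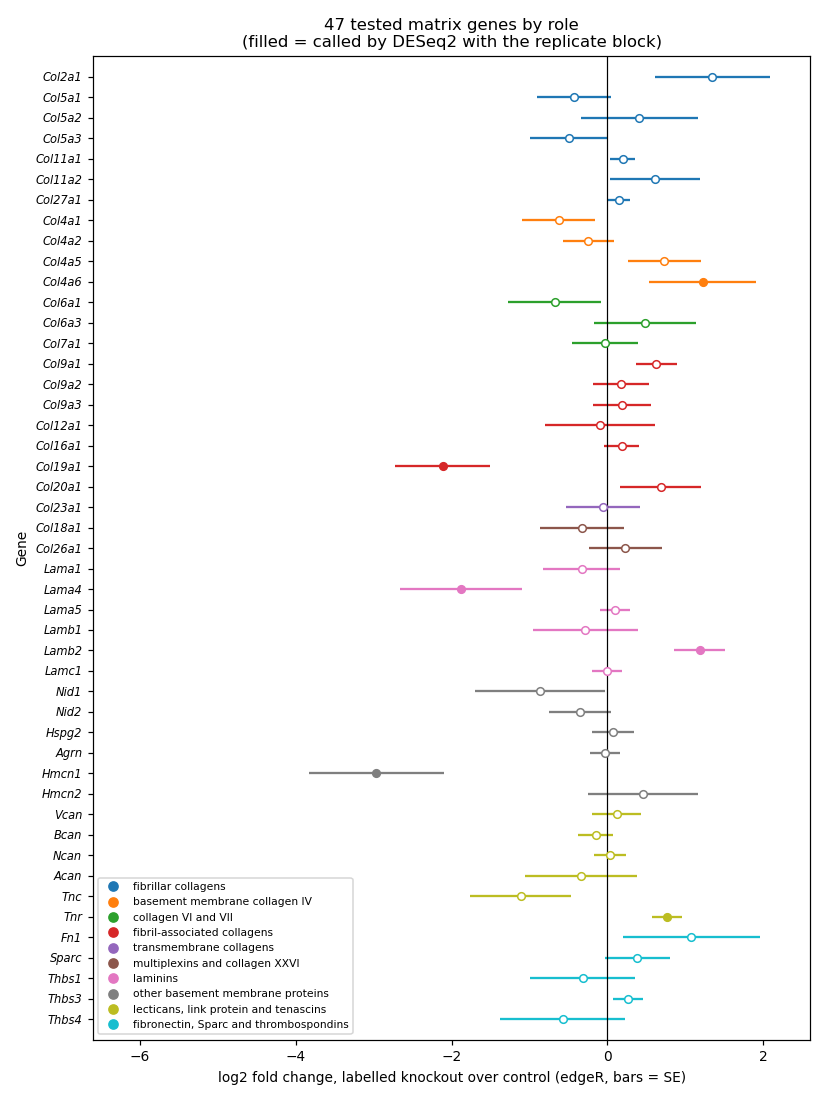
Log2 fold change of the 47 tested matrix genes, libraries labelled knockout over control libraries, with the edgeR standard error as a bar, ordered and coloured by role. Filled points mark the 6 genes called by DESeq2 with the replicate block, 3 to the right of 0 and 3 to the left.

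The lecticans and tenascins form the perineuronal and stem cell matrix of the brain. Of the 6 tested, 3 had a fold change above 0 and 3 below it, with a median log2 fold change of -0.06. Tnr encodes tenascin-R, a nervous-system tenascin that crosslinks lecticans. Tnr had 923.5, 605.2 and 856.9 CPM in the libraries labelled knockout, against 431.4, 474.3 and 497.9 CPM in control libraries. All 3 libraries labelled knockout lay above all control libraries, and replicate 2 of the libraries labelled knockout lay closest to them. The log2 fold change of Tnr was 0.77 ± 0.20 by edgeR and 0.74 ± 0.17 by DESeq2 with the replicate block, with an adjusted p of 0.00106 in the second (1.37e-07 to 0.99999 over the 18 other settings). The DESeq2 call of Tnr was lost without the replicate 1 libraries of both groups (adjusted p = 0.399) and without the replicate 3 libraries (adjusted p = 0.0996). Tnr is known to be made by oligodendrocyte-lineage cells and some neurons. Of the 11 oligodendrocyte-lineage markers with an adjusted p, DESeq2 with the block called 7 higher and 2 lower, where it called 1.17% of all genes higher and 2.39% lower. The same fit called 6 of 9 astrocyte markers and 3 of 7 neuroblast and immature neuron markers higher, and all 12 mitotic genes lower. The whole oligodendrocyte-lineage list summed to 3371, 3394 and 3432 CPM in the libraries labelled knockout and to 3423, 4532 and 3651 CPM in control libraries. Neuroblast and immature neuron markers summed to 489, 348 and 380 CPM in the libraries labelled knockout, against 264, 227 and 240 CPM in control libraries. Their part in the difference of Tnr was not tested.

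Tnc encodes tenascin-C, an anti-adhesive glycoprotein of the embryonic and adult stem cell zone. Tnc had 386.7, 823.9 and 120.7 CPM in the libraries labelled knockout, against 757.2, 1461 and 661.8 CPM in control libraries. The groups overlapped, since replicate 2 of the libraries labelled knockout lay above control replicates 1 and 3, but within each number the library labelled knockout was the lower one, by 0.97, 0.83 and 2.45 on the log2 scale. Across the study Tnc had a log2 fold change of -1.11 ± 0.65 and was not called by any fit over all libraries; DESeq2 with the block gave an adjusted p of 0.10 (0.00147 to 0.999999 over the other settings). The lowest value belonged to the fit without the replicate 3 libraries, in which Tnc was called lower. The 6 libraries stood in the same order by their Tnc level as by the summed mitotic list given above, whose part in the result was not tested. The RPKM of Tnr per RPKM of Tnc was 1.44, 0.444 and 4.29 in the libraries labelled knockout, against 0.344, 0.196 and 0.454 in control libraries. That ratio exceeded the same-numbered control in each case, which follows from the pair directions of Tnr and Tnc, and the groups overlapped.

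The promoter windows of the tenascin genes are printed because Tnr and Tnc lay on opposite sides of their same-numbered controls in all 3 pairs. Each window is RefSeq sequence of GRCm38.p6, running from 250 bases before to 50 bases after the gene's start, 5′ to 3′ on the gene's strand. Capitals mark matches to 4 motifs searched on both strands, which are the TATA element TATAAA, the CCAAT box CCAAT, the GC box GGGCGG and the AP-1 element TGANTCA. The Tnr gene lies on the plus strand of chromosome 1 with its window at chr1:159523519-159523818, and the Tnc gene on the minus strand of chromosome 4 with its window at chr4:64046966-64047265.
Tnr: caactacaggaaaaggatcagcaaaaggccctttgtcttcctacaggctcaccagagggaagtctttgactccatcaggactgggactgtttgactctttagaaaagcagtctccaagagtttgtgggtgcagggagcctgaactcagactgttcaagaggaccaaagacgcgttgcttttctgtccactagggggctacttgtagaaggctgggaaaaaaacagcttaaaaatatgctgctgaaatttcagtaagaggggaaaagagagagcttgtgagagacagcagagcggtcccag
Tnc: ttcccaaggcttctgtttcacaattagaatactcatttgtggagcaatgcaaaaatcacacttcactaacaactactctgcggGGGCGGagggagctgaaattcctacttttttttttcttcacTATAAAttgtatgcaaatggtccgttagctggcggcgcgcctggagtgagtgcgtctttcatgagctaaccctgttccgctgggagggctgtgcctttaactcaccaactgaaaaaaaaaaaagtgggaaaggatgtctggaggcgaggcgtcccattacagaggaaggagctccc
None of the 4 motifs was found in the Tnr window. The Tnc window held 1 TATAAA and 1 GGGCGG. Of 32851 windows of this length, 13.62% held TATAAA, 37.41% CCAAT, 35.66% GGGCGG and 7.808% TGANTCA. Promoter windows were matched for 55 of the 73 matrix genes, 61 windows in all, of which 13.11% held TATAAA, 34.43% CCAAT, 62.3% GGGCGG and 3.279% TGANTCA.

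Neurocan, brevican and versican, the abundant lecticans, stayed within their spread. Their log2 fold changes were 0.03 ± 0.21 for Ncan, -0.15 ± 0.23 for Bcan and 0.12 ± 0.31 for Vcan. Vcan varied more with the replicate number than with the group, at 172, 327 and 190 CPM in the libraries labelled knockout and 194, 286 and 155 CPM in control libraries, with replicate 2 highest in both.

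**Figure D3:**
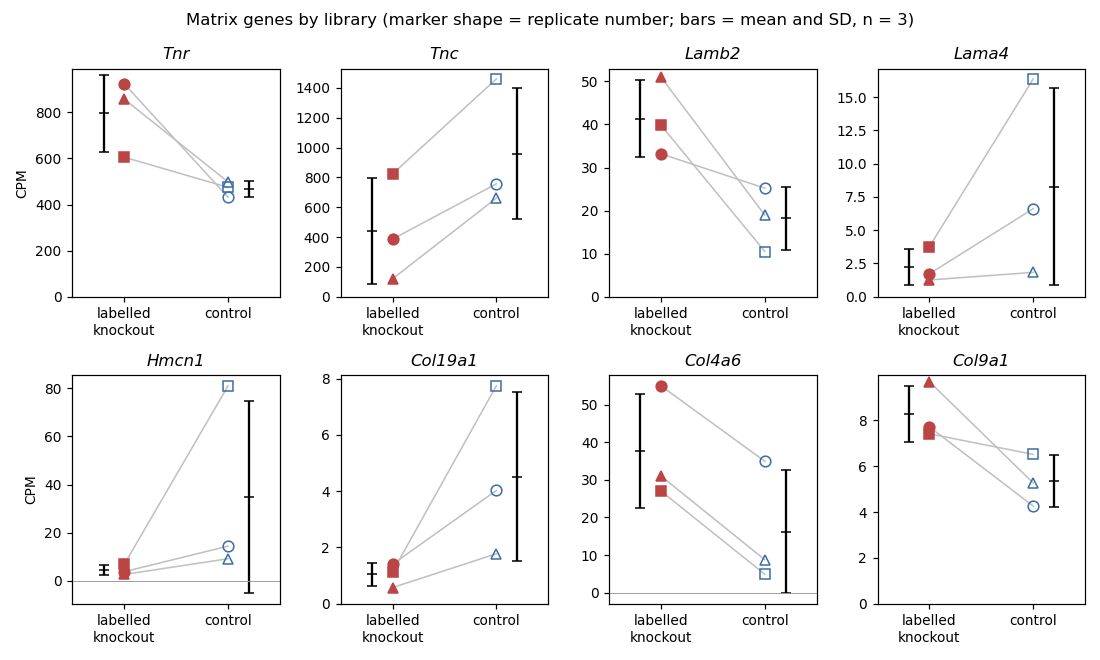
CPM of 8 matrix genes in each library, those labelled knockout at the left and controls at the right of each panel, with grey lines joining same-numbered libraries and bars giving the mean and SD (n = 3). Tnr, Lamb2 and Col9a1 are higher in all 3 libraries labelled knockout, while the high control mean of Hmcn1 rests on control replicate 2 at 81.0 CPM.

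Laminins are trimers of an alpha, a beta and a gamma chain. Of the 11 laminin genes, 6 were tested, 2 of them with a fold change above 0 and 4 below it, at a median log2 fold change of -0.15. Lamc1, Lama5 and Lamb2, the leading chains of the class per length, can join into one laminin trimer. Lamb2 had 33.2, 39.8 and 50.9 CPM in the libraries labelled knockout, against 25.2, 10.5 and 18.9 CPM in control libraries, with no overlap of the groups. Lamb2 averaged 41.3 ± 8.98 CPM in libraries labelled knockout and 18.2 ± 7.38 CPM in control libraries (SD, n = 3 each). The log2 fold change of Lamb2 was 1.18 ± 0.33 by edgeR and 1.25 ± 0.28 by DESeq2 with the block, with an adjusted p of 5.7e-04 in the second (5.5e-05 to 0.99999 over the other settings). Without the replicate 3 libraries of both groups the call of Lamb2 was lost (adjusted p = 0.0976). With a covariate for the Y-linked level the edgeR log2 fold change of Lamb2 came to 0.95 ± 0.49. Lama5, its usual alpha partner, had a log2 fold change of 0.10 ± 0.19, and Lamc1, the common gamma chain, one of -0.01 ± 0.19. Lamb1, the alternative beta chain, had 4.75, 21.6 and 6.42 CPM in the libraries labelled knockout and 5.29, 20.3 and 14.4 CPM in control libraries, highest in replicate 2 of both groups. Summed over all 11 genes, laminins came to 307, 431 and 288 CPM in the libraries labelled knockout and 319, 320 and 323 CPM in control libraries, so the control libraries lay within those labelled knockout.

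Lama4, the alpha chain of laminins in vessel walls, was a minor laminin here. Lama4 had 1.73, 3.77 and 1.26 CPM in the libraries labelled knockout, against 6.62, 16.4 and 1.83 CPM in control libraries. Each library labelled knockout was below its same-numbered control, but the lowest control library lay below the highest library labelled knockout. The log2 fold change was -1.88 ± 0.79 by edgeR and -1.60 ± 0.42 by DESeq2 with the block, with an adjusted p of 0.0071 in the second (0.00439 to 0.999999 over the other settings). Its size varied with the samples and the model, and it came to -0.91 without control replicate 2. The block's call was lost without the replicate 1 libraries (adjusted p = 0.405) or the replicate 2 libraries (adjusted p = 0.629). With a covariate for the Y-linked level the sign turned, to 0.18, in a fit that rests largely on control replicate 3, the lowest control. Endothelial markers, of the cell type that makes laminin alpha4 in vessels, summed to 8.04, 10.04 and 3.55 CPM in the libraries labelled knockout, against 5.12, 8.02 and 6.07 CPM in control libraries, and their part in the result was not tested.

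Among the other basement membrane genes, 2 of 6 had a fold change above 0 and 4 below it. Agrin (Agrn), a heparan sulfate proteoglycan, had the highest level per length of them, with 395, 400 and 382 CPM in the libraries labelled knockout and 381, 504 and 316 CPM in control libraries. Its log2 fold change was -0.03 ± 0.19, that of perlecan (Hspg2) was 0.07 ± 0.27, and the nidogens, which bridge laminin to collagen IV, had -0.86 ± 0.84 (Nid1) and -0.35 ± 0.40 (Nid2). None of these was called by any setting. In the annotation 8.45% of the Nid2 exon bases lie under Rtraf, a gene of the other strand with more counts, so part of the Nid2 level is uncertain.

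Hmcn1, encoding hemicentin-1, a giant fibulin-family protein that links neighbouring tissues across their basement membranes, had the lowest DESeq2 adjusted p of the matrix genes in the fit with the block. Hmcn1 had 3.83, 6.87 and 2.69 CPM in the libraries labelled knockout, against 14.4, 81.0 and 9.22 CPM in control libraries. The groups did not overlap, and control replicate 2 stood far above the other two controls. The log2 fold change of Hmcn1 was -2.97 ± 0.87 by edgeR and -2.44 ± 0.34 by DESeq2 with the block, which called it lower at an adjusted p of 1.0e-09 (1.0e-09 to 0.99999 over the other settings). The DESeq2 call held with any same-numbered pair left out (adjusted p of 9.7e-08, 8.6e-04 and 1.0e-09 for pairs 1 to 3). Those fits share libraries, so they are no separate support, and edgeR with the block gave Hmcn1 an adjusted p of 0.108. The size of the fold change leaned on control replicate 2, since the edgeR value came to -1.40 without that library, and with the Y-linked covariate to -1.03. That library also had the highest summed Y-linked level and the highest summed mitotic level of the 6, and their part in the result was not tested. The related Hmcn2 averaged 5.63 ± 3.29 CPM in libraries labelled knockout and 4.09 ± 3.36 CPM in control libraries (SD, n = 3 each), and its log2 fold change was 0.46 ± 0.71. The Hmcn1 promoter window, printed because its call held with any pair left out, lies on the minus strand at chr1:150993386-150993685 and held 2 matches to CCAAT, shown in capitals.
Hmcn1: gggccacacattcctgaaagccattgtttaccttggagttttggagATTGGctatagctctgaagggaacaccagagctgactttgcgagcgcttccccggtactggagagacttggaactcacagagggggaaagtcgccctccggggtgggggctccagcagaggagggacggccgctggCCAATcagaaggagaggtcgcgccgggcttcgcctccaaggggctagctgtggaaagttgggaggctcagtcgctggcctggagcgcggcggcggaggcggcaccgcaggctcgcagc

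Collagen IV is the collagen of basement membranes, and its 6 chains are encoded by pairs of neighbouring genes that are read away from each other. Of the 4 chains tested, the X-linked pair had fold changes above 0 and the chromosome 8 pair below it. Col4a6 had 55.0, 27.0 and 31.0 CPM in the libraries labelled knockout, against 34.9, 4.90 and 8.76 CPM in control libraries. Each library labelled knockout was above its same-numbered control, and the groups overlapped through replicate 1, which was highest in both. The log2 fold change of Col4a6 was 1.22 ± 0.69 by edgeR and 1.63 ± 0.33 by DESeq2 with the block, with an adjusted p of 1.25e-04 in the second (4.6e-06 to 0.999999 over the other settings). This call also held with any same-numbered pair left out, in fits that share libraries, but edgeR with the block gave an adjusted p of 0.185. The edgeR log2 fold change came to 0.79 without control replicate 2 and to 2.47 without control replicate 1. With the Y-linked covariate it came to 1.78 ± 1.10. The part of the Y-linked difference between the groups in the values of this X-linked pair was not tested. Col4a5 had 127.6, 97.9 and 103.7 CPM in the libraries labelled knockout, against 109.6, 24.4 and 65.0 CPM in control libraries. It too lay above its same-numbered control in every pair, by 0.22, 2.00 and 0.67 on the log2 scale, and its log2 fold change of 0.73 ± 0.47 was not called (adjusted p = 0.492 by DESeq2 with the block, 0.00933 to 0.999999 over the other settings, the lowest without the replicate 1 libraries).

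Col4a1, which with Col4a2 makes the common collagen IV of vessels, had 11.2, 17.04 and 5.90 CPM in the libraries labelled knockout, against 8.92, 22.0 and 21.8 CPM in control libraries. Col4a2 had 6.42, 8.25 and 6.48 CPM in the libraries labelled knockout, against 5.35, 7.91 and 11.8 CPM in control libraries. Neither gene was higher or lower in all 3 pairs, and the log2 fold changes were -0.62 ± 0.47 (Col4a1) and -0.24 ± 0.33 (Col4a2). Per length, Col4a5 was the more abundant chain in every library: its RPKM per RPKM of Col4a1 was 12.6, 6.39 and 19.5 in the libraries labelled knockout, against 13.7, 1.23 and 3.32 in control libraries. Col4a3 and Col4a4 had at most 10 counts in any library and were not tested. Summed over the 6 genes, collagen IV came to 201, 151 and 148 CPM in the libraries labelled knockout, against 160, 59.9 and 108 CPM in control libraries, lowest in control replicate 2.

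The windows of the X-linked pair are printed because both genes lay above their same-numbered controls in all 3 pairs and are neighbours. Col4a6 lies on the minus strand at chrX:141474027-141474326 and Col4a5 on the plus strand at chrX:141475169-141475468, with RefSeq start sites 1343 bases apart. Capitals again mark motif matches.
Col4a6: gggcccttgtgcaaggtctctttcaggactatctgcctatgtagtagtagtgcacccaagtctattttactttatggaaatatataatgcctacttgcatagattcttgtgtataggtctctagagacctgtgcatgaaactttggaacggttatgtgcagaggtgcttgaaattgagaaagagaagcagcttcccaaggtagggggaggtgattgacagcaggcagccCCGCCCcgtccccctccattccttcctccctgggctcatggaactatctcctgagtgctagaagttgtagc
Col4a5: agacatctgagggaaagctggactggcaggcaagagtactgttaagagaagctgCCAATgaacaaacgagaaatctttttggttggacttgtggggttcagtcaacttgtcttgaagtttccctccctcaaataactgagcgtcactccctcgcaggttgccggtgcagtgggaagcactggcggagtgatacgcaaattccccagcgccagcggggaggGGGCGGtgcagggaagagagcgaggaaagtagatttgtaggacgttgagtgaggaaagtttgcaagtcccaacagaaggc
The Col4a6 window held 1 GGGCGG, and the Col4a5 window held 1 CCAAT and 1 GGGCGG. The Col4a1 and Col4a2 genes on chromosome 8 lie closer still: their ends overlap by 22 bases in the table and their windows share 78 bases. Exonic overlap of that size is 0.295% of the Col4a1 exon length, so reads from the partner could add little to either count.

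None of the other fibrillar, short-chain, collagen VI or collagen VII genes was called by any setting. Of the 11 fibrillar collagen genes 7 were tested, 5 with a fold change above 0 and 2 below it, at a median log2 fold change of 0.19. Col11a1, a minor fibrillar chain that sets fibril width in cartilage, led them per length, with 97.2, 73.7 and 107 CPM in the libraries labelled knockout and 73.0, 82.5 and 87.1 CPM in control libraries. Col27a1 averaged 36.0 ± 3.93 CPM in libraries labelled knockout and 32.4 ± 1.38 CPM in control libraries (SD, n = 3 each). Col11a2 had 20.0, 7.83 and 30.4 CPM in the libraries labelled knockout, against 10.7, 6.25 and 21.4 CPM in control libraries. It was higher in every pair with overlapping groups, and its log2 fold change was 0.61 ± 0.58. The collagen VI and VII genes summed to 10.95, 12.2 and 12.7 CPM in the libraries labelled knockout and 14.2, 8.18 and 17.3 CPM in control libraries. The short-chain collagens Col8a1 and Col8a2 had no count in any library labelled knockout, against at most 3 counts in any control library, so no fold is given.

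The fibril-associated collagens, which sit on the surface of other fibrils, held 2 of the 6 genes with an unadjusted edgeR p under 0.05, in opposite directions. Col16a1, the leading gene of the class per length, averaged 135 ± 39.7 CPM in libraries labelled knockout and 119 ± 17.5 CPM in control libraries (SD, n = 3 each), with a log2 fold change of 0.19 ± 0.22. Col9a1, a chain of the collagen IX of cartilage and vitreous, had 7.71, 7.41 and 9.69 CPM in the libraries labelled knockout, against 4.26, 6.51 and 5.27 CPM in control libraries. No control library reached any of these values, at a log2 fold change of 0.63 ± 0.26, and no setting called it (adjusted p of 0.349 to 0.999999). Its partner chains Col9a2 and Col9a3 had log2 fold changes of 0.18 ± 0.36 and 0.19 ± 0.37. Col19a1, a rare basement membrane zone collagen, had 1.40, 1.14 and 0.573 CPM in the libraries labelled knockout, against 4.03, 7.75 and 1.77 CPM in control libraries, also without overlap. Its log2 fold change was -2.11 ± 0.61 by edgeR and -1.99 ± 0.51 by DESeq2 with the block, with an adjusted p of 0.00575 in the second (0.0788 to 0.99999 over the other settings). Col19a1 came to -1.48 without control replicate 2 and to -0.80 with the Y-linked covariate, and the block's call was lost without the replicate 1 libraries (adjusted p = 0.154) or the replicate 3 libraries (adjusted p = 0.0788). Without the replicate 2 libraries that fit gave Col19a1 no adjusted p, so the call was absent from all 3 fits with a pair left out. These levels are near 1 CPM, so counting error adds to the spread.

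Among the transmembrane collagens, multiplexins and collagen XXVI, 3 genes were tested and none was called. Col18a1, whose C-terminal fragment is endostatin, had 57.6, 59.7 and 12.6 CPM in the libraries labelled knockout and 74.2, 40.6 and 48.1 CPM in control libraries, with replicate 3 of the libraries labelled knockout far below the rest.

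Fibronectin, Sparc and the thrombospondins are glycoproteins that link the matrix to cells. Fn1 had 40.4, 21.9 and 2.24 CPM in the libraries labelled knockout, against 13.3, 12.8 and 4.52 CPM in control libraries, higher in pairs 1 and 2 and lower in pair 3. Its log2 fold change was 1.08 ± 0.88 and the groups overlapped fully. Fn1 was called in only 1 setting, higher by DESeq2 with the block without the replicate 3 libraries of both groups. Sparc, a collagen-binding protein of glia, averaged 160 ± 65.7 CPM in libraries labelled knockout and 123 ± 61.3 CPM in control libraries (SD, n = 3 each), with a log2 fold change of 0.38 ± 0.42. Thbs3 was the leading thrombospondin per length, with 20.7, 18.4 and 21.9 CPM in the libraries labelled knockout, against 19.4, 13.7 and 17.6 CPM in control libraries. It was higher in each pair with overlapping groups, at a log2 fold change of 0.26 ± 0.19, and 6.59% of its exon bases lie under a gene on the other strand.

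**Figure D4:**
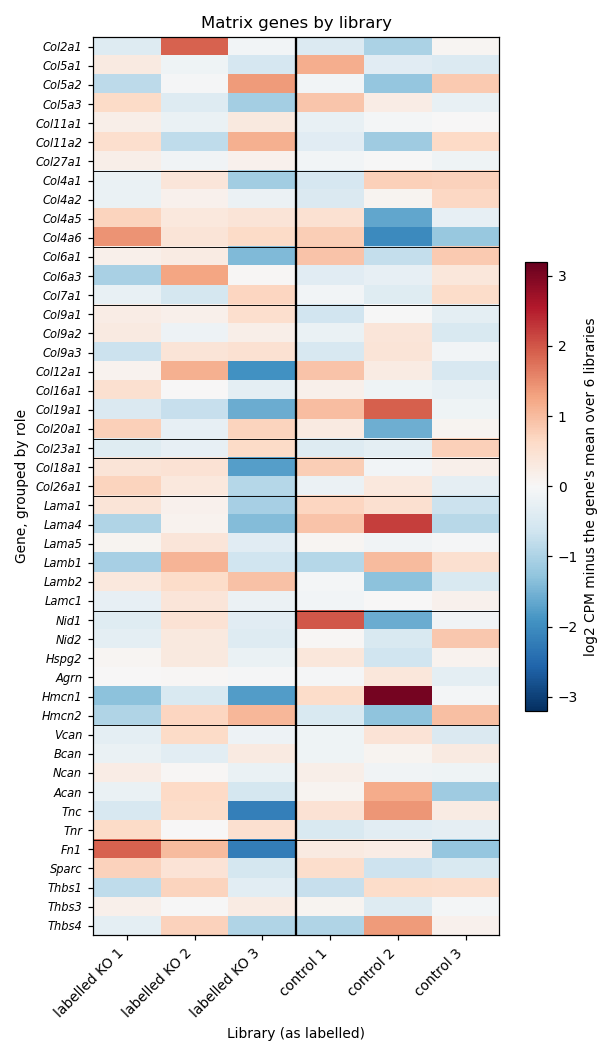
Log2 CPM of the 47 tested matrix genes in each library, minus the gene's mean over the 6 libraries, with genes in order of role and the libraries labelled knockout left of the thick line. Hmcn1, Lama4 and Col19a1 are darkest red in control replicate 2, and Tnc, Fn1, Col12a1 and Col18a1 are blue in replicate 3 of the libraries labelled knockout.

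Of the 47 tested genes, 14 lay on one side of the same-numbered control in all 3 pairs, where 36% of all genes did (18% higher and 18% lower): 8 were higher (Col11a2, Col4a5, Col4a6, Col9a1, Col20a1, Lamb2, Tnr and Thbs3) and 6 lower (Col5a3, Col19a1, Lama1, Lama4, Hmcn1 and Tnc). The median level of the matrix genes spread widely among the libraries labelled knockout. As log2 CPM minus the mean of the 6 libraries, it was 0.0558, 0.315 and -0.212 in the libraries labelled knockout, against -0.0429, -0.0576 and -0.0637 in control libraries.

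Other genes of the matrix pathway were described from lists of receptors, enzymes, proteases and further matrix proteins. EdgeR called none of these genes, and the counts that follow are those of DESeq2 with the replicate block among the genes it gave an adjusted p, where it called 1.17% of all genes higher and 2.39% lower. Of 25 matrix receptors 1 was higher, Itga2, a collagen-binding integrin chain (9.68 ± 3.11 CPM in libraries labelled knockout and 4.01 ± 3.40 CPM in control libraries), and 1 lower, Itga8, an integrin chain that binds nephronectin and tenascin-C (3.24 ± 1.96 CPM in libraries labelled knockout and 8.67 ± 6.18 CPM in control libraries). The receptor with the highest CPM, Itgb1, the shared beta1 chain, had a log2 fold change of -0.12 ± 0.24. None of 22 collagen-processing enzymes was called, and P4hb, a subunit of collagen prolyl hydroxylase, had a log2 fold change of 0.07 ± 0.15. Of 22 proteases and inhibitors 2 were higher, the metalloproteinase inhibitors Timp1 and Timp3, and 2 lower, the membrane-bound metalloproteinase Mmp15 and the versican-cleaving Adamts9. Mmp15 had 306.8, 373.8 and 238.9 CPM in the libraries labelled knockout, against 521.7, 918.9 and 494.3 CPM in control libraries, all 3 below the lowest control. Timp3 had 75.9, 129.5 and 115.4 CPM in the libraries labelled knockout, against 59.1, 57.6 and 80.8 CPM in control libraries, with overlap. Timp1 had 49.9, 7.59 and 6.65 CPM in the libraries labelled knockout, against 14.8, 1.56 and 6.70 CPM in control libraries, with replicate 1 highest in both groups. Adamts9 had 48.6, 42.7 and 30.0 CPM in the libraries labelled knockout, against 72.0, 84.4 and 38.5 CPM in control libraries, also with overlap. The gene of that list with the highest CPM, Serpine2, a serine protease inhibitor, had a log2 fold change of -0.35 ± 0.26.

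Of 27 other matrix glycoproteins, 2 were lower: Fbn2, a fibrillin of developing microfibrils (81.4 ± 38.2 CPM in libraries labelled knockout and 163 ± 79.2 CPM in control libraries), and Spp1, osteopontin (0.784 ± 0.828 CPM in libraries labelled knockout and 3.07 ± 0.916 CPM in control libraries). Sparcl1, the gene of that list with the highest CPM and a relative of Sparc, had a log2 fold change of 0.59 ± 0.50. Of 8 hyaluronan genes 1 was lower, Hmmr, a hyaluronan receptor that also acts on the mitotic spindle, at 21.0, 78.4 and 16.8 CPM in the libraries labelled knockout, against 58.9, 107.8 and 41.8 CPM in control libraries. None of 10 small leucine-rich and other proteoglycans was called. The median log2 fold changes of these lists ran from -0.34 for hyaluronan genes to 0.01 for the other glycoproteins, beside 6.6e-05 for all genes.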

How the data were processed

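Bulk RNA-seq of 6 libraries was used, 3 labelled Sirt6 knockout and 3 control, grouped by the labels. Per the file headers, the authors deposited unnormalized counts, whole numbers for each gene and library. The same table has their own mean of scaled counts (a signal), fold change (a ratio), log2 ratio, p-value and adjusted p-value, deposited as columns of control over knockout and not used for any result. Per the submitters' processing notes, HISAT2 2.1.0, Bowtie2 2.2.3 and the build mm10 were used, in roles they do not state. The counting tool and its strand setting are not stated there or in the labels, so reads of genes that overlap on opposite strands cannot be told apart.

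Counts were tested with edgeR 4.0.16 (R 4.3.3): TMM scaling, filterByExpr (minimum count 10, total 15), robust dispersions, glmQLFit and glmQLFTest on group over all genes, with Benjamini-Hochberg adjustment at 0.05. Alternatives were DESeq2 1.42.0, limma-voom (limma 3.58.1), other scalings and filters, the replicate number as a block, a Y-linked covariate (the summed log2 CPM of 4 Y-linked genes), and leaving out each library. Fits without both libraries of a number were added after seeing the data. The titles number the replicates in both groups. Deviations of same-numbered libraries from their group means correlated at 0.43, 0.35 and 0.51, and all other pairs of libraries from different groups below 0. Deviations sum to 0 within a group, which pushes those other correlations below 0, so they are no separate support for a pairing. The numbers were taken to pair the libraries from the same-numbered values alone. No label states a shared litter or day, so the pairing remains an assumption of the block fits. No 2 libraries agreed within sampling noise. RPKM used exon lengths of GENCODE M21, and promoter windows came from RefSeq (GRCm38.p6). Total counts per library ranged from 17198852 to 18297275.

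Genes named are those called by edgeR or DESeq2 with or without the block, those with an unadjusted edgeR p under 0.05, and the 3 of highest CPM in each role; for the other matrix lists, those called and the one of highest CPM. Vcan, Nid1, Nid2, Col4a2, Col9a2, Hmcn2, Hapln1, Acan and other genes outside that rule were named after their values were seen. The matrix genes and all lists were chosen with earlier results of these data known. The fits were tested on simulated counts that held no effect of the replicate number. That test cannot show how often the block fits call unchanged genes in paired libraries.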

Additional observations from a re-analysis of the deposited data

How the results depend on the processing

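Over all genes, edgeR called 0, DESeq2 5, edgeR without a filter 1, DESeq2 with the replicate block 465, and the fits that each leave out 1 library 0 to 2 (1 without control replicate 1, 2 without control replicate 3). Without the replicate 1, 2 or 3 libraries of both groups, DESeq2 with the block called 128, 337 and 127 genes. Of the matrix genes, edgeR called 0 under every setting of its own, DESeq2 with the block 6, and 4, 4 and 5 without the replicate 1, 2 or 3 libraries; only Col4a6 and Hmcn1 were among the genes called in all of these block fits. The block under edgeR changed no call after adjustment. The median log2 fold change of the matrix genes stayed within 1 SD of the spread between libraries in the 15 alternatives it was computed for, which leave out the fits without a same-numbered pair, from -0.05 to 0.13 with single libraries left out. With the Y-linked covariate the log2 fold change changed sign for Col11a2 (-0.10), Col6a3 (-0.013), Col12a1 (0.58), Lama4 (0.18), Hspg2 (-0.12) and Agrn (0.31). That covariate sets control replicates 1 and 2 apart, so those values rest largely on control replicate 3. With 1 library left out, the range of log2 fold changes crossed 0 for these genes: -0.38 to 0.91 for Col6a3, -0.49 to 0.31 for Col7a1, -0.013 to 0.48 for Col9a3, -0.91 to 0.38 for Col12a1, -0.068 to 0.36 for Col16a1, -0.47 to 0.45 for Col23a1, -0.62 to 0.11 for Col18a1, -0.14 to 0.59 for Col26a1, -0.087 to 0.27 for Lama5, -0.24 to 0.11 for Lamc1, -0.17 to 0.29 for Hspg2, -0.17 to 0.17 for Agrn and -0.082 to 0.15 for Ncan. With the same-numbered libraries of both groups left out under DESeq2 with the block, it crossed 0 for these: -1.51 to 0.14 for Col6a1, -0.56 to 0.66 for Col6a3, -0.080 to 0.30 for Col9a3, -1.11 to 0.039 for Col12a1, -0.074 to 0.030 for Col23a1, -1.14 to 0.092 for Col18a1, -0.33 to 0.48 for Col26a1, -0.14 to 0.26 for Lama5, -0.24 to 0.11 for Lamc1 (0.025 without the replicate 1 libraries), -0.31 to 0.32 for Hspg2, -0.14 to 0.17 for Agrn, -0.016 to 0.084 for Ncan and -0.068 to 1.19 for Fn1. The cause of these changes was not tested. In all 26 matrix genes had too few counts to test, and 3 libraries a group limit what differences can be called.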
